A study of Mus musculus with 22 samples.

Results

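The messenger RNAs of cholesterol synthesis and sterol regulation were followed in whole spinal cord of mice that carry the E196K change in Yars, the gene of tyrosyl-tRNA synthetase. In the human gene this change is known from families with a dominant peripheral neuropathy. The 37 genes were chosen by their known roles, with earlier results of these data known. All were taken by gene symbol from the 38924 gene IDs of the deposited tables. They comprised 19 enzymes of the synthesis pathway, 5 regulators of the SREBP transcription factors, 6 other SREBP targets and 7 genes of the LXR, efflux and storage branch. All 37 were among the 16974 genes that passed the filter on low counts.

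RNA sequencing covered 10 libraries from homozygous cords (HOM), 6 from heterozygous cords (HET) and 6 from wild type cords (WT), all from mice aged 7 months on a mixed B6N and B6J background. HOM animals carry the E196K change on both Yars alleles, HET animals on 1 allele and WT animals on none. The labels name no transgene, Cre driver or treatment, and do not give sex. They also leave unsaid whether every library is a different animal, and the p-values below therefore cover only the variation among these libraries.

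Cholesterol cannot cross the blood-brain barrier in bulk, so the cells of brain and cord make their own, and oligodendrocytes use much of it for myelin. When sterols in the endoplasmic reticulum are low, Scap carries SREBP precursors to the Golgi, where they are cut, and the freed factors switch on the genes of synthesis and uptake. When sterols are plentiful, the Insig proteins hold Scap and SREBP back. Oxidised sterols activate the LXR receptors, which switch on the export of cholesterol. Whole cord mixes all these cells, and in such bulk samples fewer cells of a type and less RNA per cell cannot be told apart.

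Promoter sequences are shown because SREBP acts at them together with NF-Y, a factor that binds CCAAT. Each line holds the 250 bases before a RefSeq gene start in the mouse build GRCm38.p6, read 5′ to 3′ on the gene's strand. Capitals mark CCAAT or its reverse complement ATTGG, and in Hmgcs1 also the sterol response element letters TCACCCCAC. The lines show Cyp51 (chr5:4104698-4104947, minus strand) and Mvd (chr8:122443423-122443672, minus strand), the genes that passed the test between HOM and HET. They also show Msmo1 (chr8:64733579-64733828, minus strand) and Hmgcs1 (chr13:119690101-119690350, plus strand). Of these, Hmgcs1 held the sterol response element letters. The last line is Abca1 (chr4:53159896-53160145, minus strand), an LXR target with no match to the exact letters searched.
Cyp51: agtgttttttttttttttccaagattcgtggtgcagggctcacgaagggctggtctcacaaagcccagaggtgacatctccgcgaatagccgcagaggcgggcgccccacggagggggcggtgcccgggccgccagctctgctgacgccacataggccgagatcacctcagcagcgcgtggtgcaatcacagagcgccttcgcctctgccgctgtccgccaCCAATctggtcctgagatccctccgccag
Mvd: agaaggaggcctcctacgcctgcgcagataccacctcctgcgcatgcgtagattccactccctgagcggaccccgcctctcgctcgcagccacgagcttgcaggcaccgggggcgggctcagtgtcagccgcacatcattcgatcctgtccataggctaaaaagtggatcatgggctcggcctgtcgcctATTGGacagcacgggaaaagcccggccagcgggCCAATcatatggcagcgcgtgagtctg
Msmo1: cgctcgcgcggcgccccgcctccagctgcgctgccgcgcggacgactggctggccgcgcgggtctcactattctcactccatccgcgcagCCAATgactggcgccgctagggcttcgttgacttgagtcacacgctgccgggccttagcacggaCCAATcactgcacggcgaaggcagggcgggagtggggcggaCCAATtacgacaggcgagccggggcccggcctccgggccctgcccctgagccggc
Hmgcs1: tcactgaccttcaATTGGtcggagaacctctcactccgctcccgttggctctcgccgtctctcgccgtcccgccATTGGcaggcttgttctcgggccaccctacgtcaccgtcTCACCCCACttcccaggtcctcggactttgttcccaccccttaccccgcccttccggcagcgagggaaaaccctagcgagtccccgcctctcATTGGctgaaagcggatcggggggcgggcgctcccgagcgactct
Abca1: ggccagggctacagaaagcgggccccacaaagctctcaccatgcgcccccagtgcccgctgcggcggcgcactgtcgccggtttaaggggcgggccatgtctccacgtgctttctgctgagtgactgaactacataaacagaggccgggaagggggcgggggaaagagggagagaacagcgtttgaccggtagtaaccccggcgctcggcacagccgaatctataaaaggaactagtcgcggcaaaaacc

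The RefSeq table held promoters for 30 of the 37 genes. CCAAT, searched on both strands, stood in at least 1 promoter of 24 of these 30 genes (80.0%) and of 15 of the 16 synthesis enzymes with an entry. It stood in 37.5% of the 27025 genes of the table and in 33.8% of its 32851 promoters. In the LXR, efflux and storage class 3 of 6 genes held it. In Cyp51 it began 29 bases before the gene start, and in Mvd 60 and 27 bases before it. One exact form of the sterol response element, TCACNCCAC, was also searched on both strands. It was found in 1 of the 30 genes, against 1.22% of all genes and 1.05% of all promoters. That match was in Hmgcs1, 137 bases before the start. For LXR, GGTCA repeated after 4 free bases was searched on both strands. This exact pattern was in 0 of the 30 genes and in 0.0457% of promoters. It allows no other letters or spacing, and the Abca1 stretch named above falls outside it. No match to one pattern overlapped a match to another in the lines shown. These are matches of exact letters in a short window, and no binding was measured. Sites that differ from these letters were not searched for, so a promoter without a match may still hold an element.

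The libraries held 24.45 to 42.81 M rounded counts. The library titles carry 1 of 3 prefixes (39992, 40411 and 40412) whose meaning is not given in the labels, and each genotype has a different share of them. Prefix 39992 had 5 HOM, 0 HET and 1 WT libraries, 40411 had 3 HOM, 1 HET and 2 WT libraries, and 40412 had 2 HOM, 5 HET and 3 WT libraries, so each contrast was also fitted with the prefix as a covariate. HOM 3 stood apart: 8 Schwann cell markers summed to 2856 TPM in it and to at most 25.7 TPM in any other library (TPM is a level scaled to transcript length and library total). In HOM 3 the 6 blood markers summed to 9597 TPM, against at most 3842 TPM in any other library. Its 8 fibroblast and meningeal markers summed to 1331 TPM, against at most 1114 TPM elsewhere. Most of that sum was Ptgds, at 1004 TPM in HOM 3 and 1069 TPM in WT 1. Dcn was at 181 TPM in HOM 3 and at most 12.7 TPM elsewhere, and Col1a1 at 28.4 and at most 3.59 TPM. Col1a2, Col3a1, Lum and Slc6a13 were also highest in HOM 3, while Ptgds and Pdgfra were not. HOM 3 also had the lowest sum of the 19 synthesis enzymes of any library (968 TPM), and results are given with and without it. The defining markers of spinal cord cells were present in all libraries, with 12 oligodendrocyte markers summing to between 15310 and 21672 TPM. The 8 fat cell markers summed to 40.3 to 69.4 TPM in HOM, 34.3 to 46.7 TPM in HET and 35.5 to 64.5 TPM in WT, mostly from Pnpla2 (at most 57.8 TPM) and Plin4 (at most 16.4 TPM), which were above 0 in every library. The defining markers Adipoq, Plin1 and Lep reached at most 0.53, 0.1 and 0.03 TPM, Cidec 0.4 TPM and Cfd 1.0 TPM, while Fabp4 was at 8.68 TPM in HOM 3 and at most 0.95 TPM elsewhere. The part of these markers in the results was not tested. In CPM, which are read counts scaled to library size, Yars averaged 121 ± 6.02 CPM in HOM, 115 ± 4.38 CPM in HET and 113 ± 3.77 CPM in WT (SD, n = 10, 6 and 6) and passed in no contrast. A protein change need not alter the transcript level, so Yars does not check the genotype labels.

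The transcripts of the pathway covered a wide range of levels in the cord. TPM, which allows genes to be compared, was highest for Scd2, the main stearoyl-CoA desaturase of the brain, at 1351 ± 58.7 TPM in HOM, 1407 ± 46.4 TPM in HET and 1338 ± 55.7 TPM in WT. Scd1, a second desaturase, followed with 241 ± 25.7 TPM in HOM, 267 ± 9.96 TPM in HET and 244 ± 16.8 TPM in WT. Hmgcs1, which makes the precursor of mevalonate, was the highest synthesis enzyme, with 197 ± 18.6 TPM in HOM, 229 ± 11.7 TPM in HET and 218 ± 22.8 TPM in WT. Scd2 lay above Scd1 in 6 of 6 WT libraries, and Scd1 above Hmgcs1 in 5 of 6.

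Below them stood the fatty acid synthase Fasn (115 TPM in WT), the sterol oxidase Msmo1 (111 TPM), the regulator Insig1 (104 TPM) and the farnesyl pyrophosphate synthase Fdps (95.9 TPM). Many neighbours further down were not separated: Sc5d was above Idi1 in only 3 of 6 WT libraries, Srebf1 above Cyp51 in 3, and Mvd above Hsd17b7 in 3. Among the regulators Srebf2, the SREBP gene tied most closely to cholesterol synthesis, was at 81.6 TPM in WT and Srebf1, tied more to fatty acid synthesis, at 56.0 TPM. The lowest of the 37 genes belonged to the LXR branch. The efflux pump Abca1 was at 10.1 TPM in WT, the ubiquitin ligase Mylip, which marks lipoprotein receptors for degradation, at 6.06 TPM, and Nr1h3, which encodes LXR alpha, at 5.21 TPM. Nr1h2, which encodes LXR beta, was at 66.9 TPM.

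**Figure D1:**
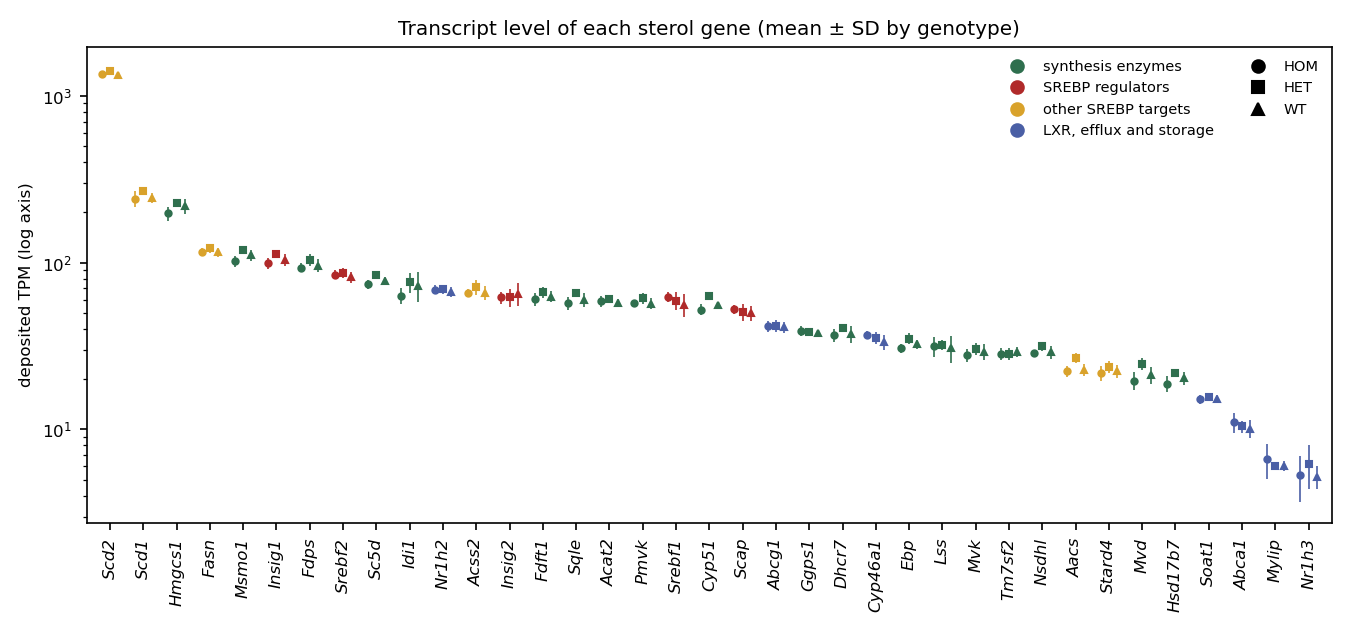
Deposited TPM of each of the 37 genes on a log axis, ordered by the WT mean, with points for the HOM, HET and WT means and bars for the SD over 10, 6 and 6 libraries. The levels run from 1338 TPM for Scd2 to 5.21 TPM for Nr1h3 in WT, and the 3 genotypes lie close together at each gene.

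Homozygous against wild type cords. The first question is what happens to the sterol genes when both Yars alleles carry E196K. Synthesis enzymes had slightly lower levels in HOM, 18 of 19 of them, but the shifts were small and no member passed the test. edgeR's quasi-likelihood test with Benjamini-Hochberg adjustment called 0 of the 37 genes, against 0.0943% of all genes tested. DESeq2 and limma-trend also called 0 of the 37 genes. At an unadjusted p below 0.05 it found 10 of the 37, 9 lower and 1 higher, where 2.3% of all genes were lower and 3.62% higher at that p. The median log2 fold change of the enzymes was -0.095, against 0.007 over all genes, of which 46.3% were below 0.

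In the early part of the pathway, Hmgcs1 ranged over 295, 333 and 375 CPM in HOM (lowest, median, highest) against 325, 395 and 436 CPM in WT. Its log2 fold change was -0.19 (SE 0.0604, adjusted p = 0.643 by edgeR's quasi-likelihood test with Benjamini-Hochberg adjustment). The ranges overlapped, with WT 1 the lowest WT library. Hmgcs1 was 1 of 8 enzymes with a lower level at an unadjusted p below 0.05. Idi1, which isomerises the building block of sterols and other isoprenoids, ranged over 68.2, 79.7 and 92.9 CPM in HOM against 76.8, 94.8 and 117 CPM in WT, with a log2 fold change of -0.26 (SE 0.0872, adjusted p = 0.646 by the same test). Mvd, the decarboxylase that makes this building block, averaged 17.0 CPM in HOM and 18.7 CPM in WT (-0.14, SE 0.0667).

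In the late part, after the ring has closed, Msmo1 had the smallest p of the 37 genes. It ranged over 88.6, 104 and 112 CPM in HOM against 102, 117 and 121 CPM in WT, a log2 fold change of -0.15 (SE 0.0455, adjusted p = 0.604 by edgeR's quasi-likelihood test with Benjamini-Hochberg adjustment). The sterol isomerase Ebp averaged 19.8 ± 0.91 CPM in HOM and 21.3 ± 0.992 CPM in WT (-0.11, SE 0.0355), and Cyp51, the demethylase of lanosterol, 111 ± 7.9 CPM in HOM and 120.2 ± 5.72 CPM in WT (-0.12, SE 0.0436). The 1 enzyme that was not lower was Ggps1, which leads out of the sterol route towards geranylgeranyl pyrophosphate, with 47.3 CPM in HOM and 47.1 CPM in WT (0.01, SE 0.0455).

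The regulators lay on both sides of 0. Insig1, itself an SREBP target, averaged 139.8 ± 9.76 CPM in HOM and 149 ± 9.48 CPM in WT (-0.10, SE 0.0424), Srebf1 103 CPM in HOM and 96.4 CPM in WT (0.10, SE 0.065), and Scap 97.7 CPM in HOM and 94.6 CPM in WT (0.05, SE 0.0359). Srebf2 had 231 CPM in HOM and 229 CPM in WT (0.01, SE 0.0286). The 5 regulators had a median of 0.013. The 6 other SREBP targets were lower in 6 of 6 with a median of -0.037, led by the cholesterol carrier Stard4 (-0.11, SE 0.0596), with Acss2, which makes acetyl-CoA from acetate, at -0.04 (SE 0.034) and Scd1 at -0.05 (SE 0.0674). These small differences depended on the scale: with limma-trend on log2(TPM + 1) 3 of the 6 were lower, with a median of -0.004, and 15 of the 19 enzymes, with a median of -0.063 (28.5% of all genes were below 0 there, with a median of 0.037). Within prefix 40412 3 of the 6 targets were lower in CPM, and within 39992 and 40411 5 of 6 each.

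In the LXR, efflux and storage class 5 of 7 genes were higher, with a median of 0.037. Cyp46a1, the enzyme of neurons that hydroxylates cholesterol for export, was the 1 member higher at an unadjusted p below 0.05: it ranged over 38.0, 39.1 and 42.5 CPM in HOM against 30.8, 37.3 and 38.9 CPM in WT (0.11, SE 0.0398). All but 1 WT library were at 36.4 CPM or more, and the lowest value was WT 5. Nr1h2 had 0.04 (SE 0.0308) and Abca1 0.07 (SE 0.0683).

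The enzyme shift was smaller with the title prefix as a covariate, with a median of -0.063 and 18 of 19 lower (46.1% of all genes were below 0 in that fit), and was -0.072 with 17 of 19 lower without HOM 3. Within the prefixes 39992, 40411 and 40412 the enzymes were lower in 16, 16 and 15 of 19 genes, with medians of -0.05, -0.09 and -0.06. The values in 39992 rest on 1 WT library. Enzymes measured in the same libraries are not independent of each other. The share of all genes was not taken within prefixes, here or in the other contrasts.

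Heterozygous against wild type cords. With 1 changed allele the sterol genes had slightly higher levels, 30 of 37 of them and 16 of 19 enzymes (51.9% of all genes were above 0), and no gene of any kind passed. edgeR's quasi-likelihood test called 0 of the 37 and 0 of 16974 genes (0.0%), with 578 genes (3.41%) at an unadjusted p below 0.05, and DESeq2 and limma-trend also called 0. At that p 3 of the 37 genes were higher and 0 lower, where 1.69% of all genes were higher. The median log2 fold change of the enzymes was 0.057, against 0.003 over all genes.

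Aacs, which turns the ketone body acetoacetate into a precursor of sterols and fatty acids, ranged over 40.3, 41.6 and 45.7 CPM in HET against 32.9, 36.5 and 42.2 CPM in WT. Its log2 fold change was 0.18 (SE 0.0504, unadjusted p = 0.00133, adjusted p = 1 by edgeR's quasi-likelihood test with Benjamini-Hochberg adjustment). WT 4, at 42.2 CPM, was the 1 WT library inside the HET range. Cyp51 ranged over 124, 132 and 145 CPM in HET against 112, 119.6 and 129 CPM in WT (0.15, SE 0.0488). Mvd ranged over 19.4, 21.3 and 22.6 CPM in HET against 16.6, 18.3 and 21.2 CPM in WT (0.18, SE 0.0744). For both genes the ranges overlapped.

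Hmgcs1 and Idi1 differed between HET and WT by less than their standard errors. Hmgcs1 averaged 392 ± 29.9 CPM in HET and 384 ± 38.4 CPM in WT (0.03, SE 0.0678), and Idi1 94.7 ± 12.7 CPM in HET and 94.6 ± 15.7 CPM in WT (0.00, SE 0.098). The regulators had a median of 0.02, the other SREBP targets 0.067 with 6 of 6 higher, and the LXR class 0.001. With the title prefix as a covariate the enzyme median was 0.05 with 15 of 19 higher, where 46.7% of all genes were below 0. Within prefix 40411, which has a single HET library, 12 of 19 enzymes were higher, and within 40412 14 of 19.

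Homozygous against heterozygous cords. Here HOM libraries had lower levels of 30 of the 37 genes. Of these 2 passed the test, the enzymes Cyp51 and Mvd, both lower in HOM than in HET. Neither passed against WT, in HOM or in HET. That is 2 of 37, where the test called 0.106% of all genes in either direction and 0.0295% lower. At an unadjusted p below 0.05 there were 19 members, all lower, of which 15 were synthesis enzymes; over all genes 4.24% were lower at that p. The median of the enzymes was -0.154, against 0.005 over all genes, of which 47.0% were below 0. HOM enters this contrast and that with WT, and HET this one and the contrast of HET with WT, so the 3 sets of values are not independent of each other.

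Cyp51 had 96.4, 113 and 122 CPM in HOM as lowest, median and highest values against 124, 132 and 145 CPM in HET. Every HOM library was below every HET library, a separation that 0.106% of all genes showed in that direction. The log2 fold change was -0.27, or 16.9% lower in HOM than in HET (SE 0.0434, adjusted p = 0.00355 by edgeR's quasi-likelihood test with Benjamini-Hochberg adjustment). The WT libraries ran over 112 to 129 CPM and overlapped both groups. The call was kept on leaving out each of the 22 libraries in turn, with adjusted p from 0.00119 to 0.0231. It was lost in the fit that includes the prefix (-0.21, adjusted p = 0.329), while in prefixes 40411 and 40412 alone it passed (-0.25, adjusted p = 0.036). The within-prefix differences were -0.33 in 40411, which holds 1 HET library, and -0.15 in 40412.

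Mvd had 14.0, 16.5 and 20.2 CPM in HOM against 19.4, 21.3 and 22.6 CPM in HET. HOM 9 at 20.2 CPM was the 1 HOM library above the lowest HET library, HET 3. The log2 fold change was -0.33, or 20.2% lower in HOM than in HET (SE 0.0663, adjusted p = 0.0477 by edgeR's quasi-likelihood test with Benjamini-Hochberg adjustment). The call was close to the threshold: it was kept on leaving out 7 of the 22 libraries and lost on leaving out any of the others (highest adjusted p = 0.127), and it was lost in the fit that includes the prefix (-0.19, adjusted p = 0.735). Mvd was lowest in prefix 39992, whose 5 HOM libraries ranged over 14.0 to 16.3 CPM and whose WT library had 16.6 CPM, and no HET library carries that prefix.

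Further genes came close without passing. Aacs averaged 36.2 ± 2.07 CPM in HOM and 42.1 ± 1.9 CPM in HET (-0.22, SE 0.0449, adjusted p = 0.0516 by edgeR's quasi-likelihood test with Benjamini-Hochberg adjustment), and HOM 10 at 40.9 CPM was the 1 HOM library inside the HET range. Msmo1 averaged 102 ± 6.39 CPM in HOM and 118 ± 7.04 CPM in HET (-0.20, SE 0.0455, adjusted p = 0.0687 by the same test). Sc5d, the desaturase near the end of the pathway, averaged 83.9 ± 4.86 CPM in HOM and 95.0 ± 5.67 CPM in HET (-0.18, SE 0.0416, adjusted p = 0.0822 by the same test). The squalene epoxidase Sqle had -0.19 (SE 0.0521), the reductase Hsd17b7 -0.19 (SE 0.0529) and Hmgcs1 -0.22 (SE 0.0603). The other enzymes ran along the pathway as follows. At its start Acat2, the thiolase that joins acetyl units, averaged 63.5 ± 5.49 CPM in HOM and 65.6 ± 3.02 CPM in HET (-0.05, SE 0.0483). The mevalonate kinase Mvk had a log2 fold change of -0.08 (SE 0.0582), and Pmvk, which adds the next phosphate, averaged 30.7 ± 0.801 CPM in HOM and 32.7 ± 1.7 CPM in HET (-0.09, SE 0.0364). These early steps had smaller differences than Mvd, and those differences were not tested against each other.

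Further on, Idi1 averaged 79.0 ± 7.04 CPM in HOM and 94.7 ± 12.7 CPM in HET (-0.26, SE 0.0873), and the ranges of the groups overlapped. The farnesyl pyrophosphate synthase Fdps averaged 52.8 ± 3.42 CPM in HOM and 58.8 ± 4.23 CPM in HET (-0.15, SE 0.0499), and the squalene synthase Fdft1 90.2 ± 7.51 CPM in HOM and 99.3 ± 3.84 CPM in HET (-0.14, SE 0.0472). Lss, which closes the sterol rings, averaged 62.3 ± 5.25 CPM in HOM and 67.3 ± 3.53 CPM in HET (-0.11, SE 0.0509). Ggps1, on the branch to protein prenylation, was the 1 enzyme not lower, with 47.3 ± 3.23 CPM in HOM and 46.7 ± 2.18 CPM in HET (0.02, SE 0.0456).

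Among the late enzymes, Ebp averaged 19.8 ± 0.91 CPM in HOM and 21.3 ± 0.444 CPM in HET (-0.11, SE 0.0356), and the sterol dehydrogenase Nsdhl 31.4 ± 1.41 CPM in HOM and 34.2 ± 1.78 CPM in HET (-0.12, SE 0.0417). Dhcr7, whose product is cholesterol in one arm of the pathway, averaged 41.7 ± 3.59 CPM in HOM and 46.7 ± 1.89 CPM in HET (-0.16, SE 0.0535). The sterol reductase Tm7sf2 had a log2 fold change of -0.02 (SE 0.0445), within its error. DESeq2 called 6 members: Cyp51, Mvd, Aacs, Msmo1, Sc5d and Insig1. Over all 16974 genes it called 76, of which 41 were lower, where the main test called 18.

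Among the regulators Insig1 had the smallest p. It ranged over 122, 140.4 and 157 CPM in HOM against 152, 157 and 163 CPM in HET (-0.17, SE 0.0423, adjusted p = 0.139 by edgeR's quasi-likelihood test with Benjamini-Hochberg adjustment). HOM 8 at 157 CPM was the 1 HOM library within the HET range. Srebf2 averaged 231 ± 8.37 CPM in HOM and 236 ± 5.32 CPM in HET (-0.03, SE 0.0286), and Srebf1 103 ± 5.03 CPM in HOM and 97.8 ± 7.82 CPM in HET (0.08, SE 0.065). With the title prefix as a covariate both changed sign, to 0.003 for Srebf2 and -0.009 for Srebf1. Scap had 0.04 (SE 0.036) and Insig2 -0.01 (SE 0.0424).

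The 6 other SREBP targets were lower in 6 of 6 with a median of -0.121, and after Aacs came Acss2 (-0.11, SE 0.034) and Stard4 (-0.13, SE 0.0596). The fatty acid enzymes of this class had the smallest differences relative to their errors: Fasn averaged 501 ± 24.7 CPM in HOM and 527 ± 15.7 CPM in HET (-0.07, SE 0.0395), Scd2 4054 ± 194 CPM in HOM and 4199 ± 118 CPM in HET (-0.05, SE 0.0303), and Scd1 638 ± 75.4 CPM in HOM and 701 ± 30.5 CPM in HET (-0.14, SE 0.0672). HOM 8 was lowest for Scd1 at 470 CPM. The LXR, efflux and storage class had a median of 0.02, with Mylip at 0.13 (SE 0.101), Cyp46a1 at 0.07 (SE 0.0398) and Soat1, which esterifies cholesterol for storage, at -0.05 (SE 0.0498). The efflux pumps Abca1 and Abcg1 had 55.6 ± 5.68 and 79.9 ± 5.25 CPM in HOM, against 53.0 ± 4.61 and 80.1 ± 4.17 CPM in HET. The receptor genes had log2 fold changes within their errors, with Nr1h2 at 55.5 ± 1.83 CPM in HOM and 55.6 ± 1.33 CPM in HET and Nr1h3 at 3.56 ± 0.707 CPM in HOM and 3.5 ± 0.59 CPM in HET. The Mylip value was 0.03 without HOM 3, where Mylip was at 16.7 CPM. No gene of that class was at an unadjusted p below 0.05.

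**Figure D2:**
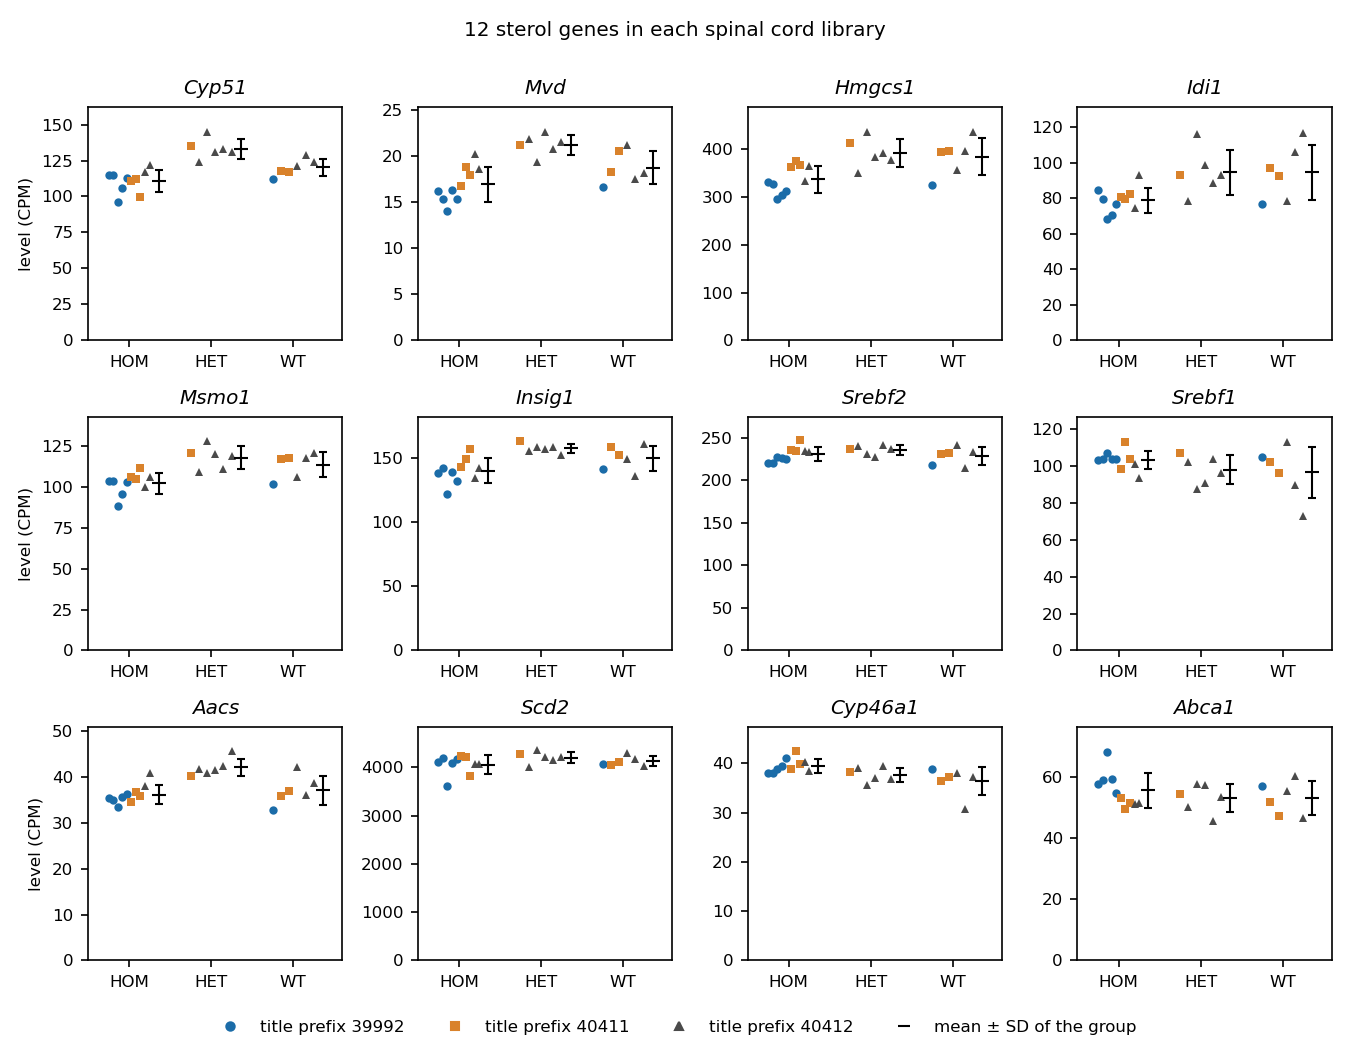
CPM of 12 of the genes in every library, HOM, HET and WT from left to right, with symbols for the 3 title prefixes and a bar for the mean ± SD of 10, 6 and 6 libraries. All HOM libraries lie below all HET libraries for Cyp51 (at most 122 against at least 124 CPM), while Srebf2, Scd2 and Abca1 overlap across the genotypes.

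In the fit that includes the prefix the enzymes had a median of -0.131 and 17 of 19 were lower (49.0% of all genes), 9 of them at an unadjusted p below 0.05 (4.11% of all genes in either direction). There 0 members passed edgeR's quasi-likelihood test, which called 0.0589% of all genes, and 13 members were at an unadjusted p below 0.05. Within prefix 40411, which holds 3 HOM libraries and 1 HET library, 17 of 19 enzymes were lower with a median of -0.11. Within 40412, with 2 HOM and 5 HET libraries, 18 of 19 were lower with a median of -0.13. Prefix 39992 has no HET library and gives no value. The oligodendrocyte and astrocyte markers had the same order as the enzymes in TPM, lowest in HOM and highest in HET. The oligodendrocyte sum had a median of 19456 TPM in HOM, 21211 TPM in HET and 19925 TPM in WT, and the sum of 8 astrocyte markers had a median of 2649 TPM in HOM, 3073 TPM in HET and 2924 TPM in WT. In CPM the astrocyte medians were 5586 in HOM, 5936 in HET and 5976 in WT. The enzymes summed to medians of 1077 TPM in HOM, 1204 TPM in HET and 1152 TPM in WT. HOM 3 was lowest for all 3 sums, and without HOM 3 Cyp51 had -0.25 and Mvd -0.30. The part of either cell type's markers in the enzyme values was not tested.

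**Figure D3:**
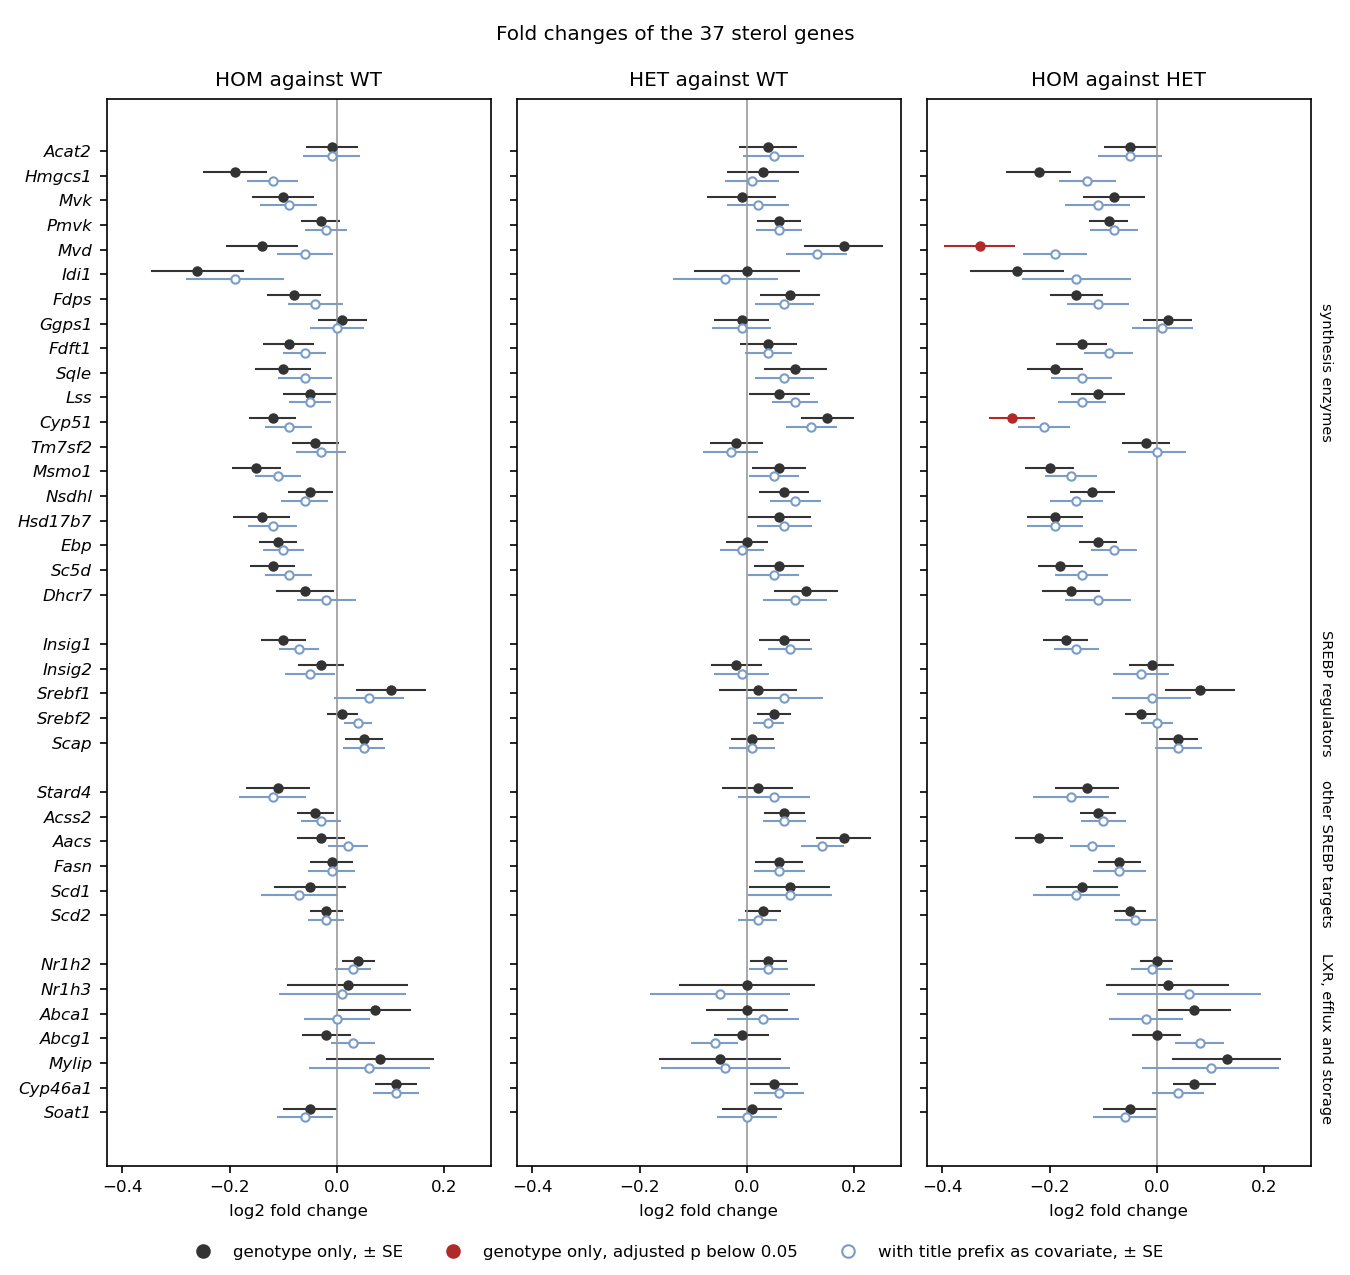
Log2 fold change ± SE of the 37 genes in HOM against WT, HET against WT and HOM against HET, grouped by role, with filled points for the fit on genotype alone and open points for the fit with the title prefix as a covariate. Cyp51 (-0.27) and Mvd (-0.33) in HOM against HET are the points with an adjusted p below 0.05, and most enzymes lie left of 0 there.

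Some members varied together from library to library within genotypes. After the mean of each genotype was removed from log2 CPM, the correlation of each other enzyme and regulator with Hmgcs1 was taken over the 22 libraries, 23 relations in all, with p-values from 100000 permutations within genotypes. At a Benjamini-Hochberg adjusted p below 0.05, 9 of the 23 passed by Pearson's r, 8 enzymes and Insig1, and 5 by Spearman's rho: Msmo1, Idi1, Hsd17b7, Sc5d and Insig1. At an unadjusted permutation p below 0.05 there were 11 of the 23 by Pearson's r and 10 by Spearman's rho, where 15.2% and 14.6% of the 16973 other genes tested had such a relation with Hmgcs1. Msmo1 had the closest relation, with Pearson's r = 0.87 and Spearman's rho = 0.89 (permutation p = 1e-05 for each, the smallest that these permutations can give, and adjusted p = 0.00023 for each). Idi1 had r = 0.83 and rho = 0.77 (permutation p = 2e-05 and 0.00012, adjusted 0.00023 and 0.0013). Sc5d had r = 0.76 and rho = 0.74 (permutation p = 7e-05 and 0.00033, adjusted 0.000537 and 0.0019). Among the regulators Insig1 had r = 0.68 and rho = 0.74 (permutation p = 0.00094 and 0.00043, adjusted 0.00432 and 0.00198), and Srebf1 had r = -0.50 and rho = -0.46 (permutation p = 0.0337 and 0.0438, adjusted 0.0775 and 0.109), which did not pass.

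Without WT 1 and WT 6, the libraries farthest from the median of Hmgcs1, r was 0.84 for Msmo1, 0.77 for Idi1, 0.75 for Sc5d, 0.62 for Insig1 and -0.32 for Srebf1. Without HOM 3, 5 relations passed by Pearson's r in place of 9, and r for Msmo1 was 0.85. When the means of the title prefixes were removed as well, 8 relations passed by Pearson's r, and they were not all the same ones. For neither of these alternatives was the share over all genes taken, so their counts have no background beside them. Idi1 then had r = 0.93, Msmo1 0.81, Sc5d 0.79, Ggps1 0.74 and Insig2 0.73, and Srebf1 had -0.70 (permutation p adjusted to 0.0317). Insig1 no longer passed (r = 0.45), and Mvd had r = 0.34 before and -0.43 after this step. The libraries share their tissue makeup and depth, so these values describe joint variation and no more.

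**Figure D4:**
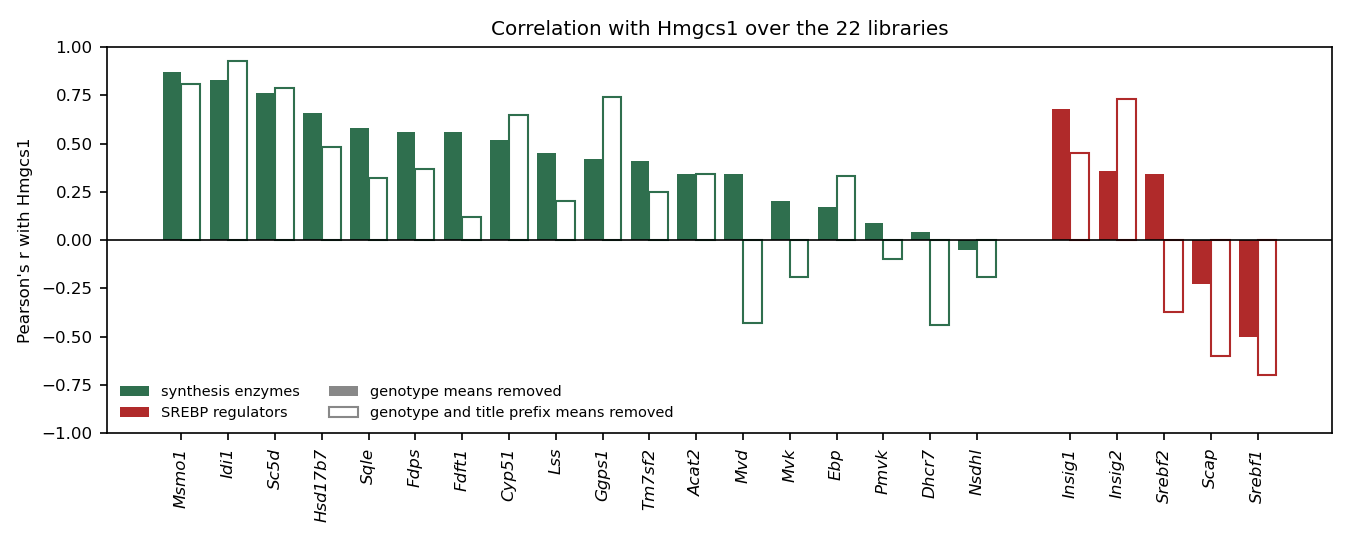
Pearson's r of 18 enzymes and 5 regulators with Hmgcs1 over the 22 libraries, with filled bars after removing genotype means and open bars after removing title prefix means too. Msmo1, Idi1 and Sc5d lie between 0.76 and 0.93 in both, while Mvd lies at 0.34 and -0.43.

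A wider list of 25 other genes of sterol and lipid metabolism, all of them tested, had no called member in any of the 3 contrasts by edgeR's quasi-likelihood test with Benjamini-Hochberg adjustment. In HOM against WT 13 were higher and 12 lower, with a median of 0.002 and 3 at an unadjusted p below 0.05 (5.91% of all genes in either direction). Npc2, which carries cholesterol out of lysosomes, had a log2 fold change of -0.07 (SE 0.029). In HET against WT 17 of 25 were higher (51.9% of all genes) with a median of 0.034, and Erlin2, an endoplasmic reticulum protein that binds cholesterol, had -0.11 (SE 0.0551) and the fatty acid desaturase Fads1 0.08 (SE 0.0493). In HOM against HET 16 of 25 were lower (47.0% of all genes) with a median of -0.043, and 6 were at an unadjusted p below 0.05 (8.8% of all genes in either direction). Acaca, the carboxylase that commits acetyl-CoA to fatty acids, had -0.12 (SE 0.0348) and Erlin2 0.13 (SE 0.0494).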

How the data were processed

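Whole-cord mRNA was measured in 10 HOM, 6 HET and 6 WT libraries, grouped by the genotype in the labels. RNA was polyA-selected and made into stranded KAPA libraries, sequenced from both ends, per the labels' protocols. RSEM gene tables with expected counts, TPM and FPKM were deposited by the authors, per the file headers. Tools in the submitters' processing notes were RSEM 1.2.12 and Bowtie2 2.2.0. The genome build, the annotation and the use of strand were not given in the sources used here, so genes that share reads with a copy or an antisense partner carry that uncertainty. The deposited expected counts need not be whole (14.41% to 16.23% of values per library were not) and were rounded. The deposited TPM values served for levels between genes and for limma-trend on log2(TPM + 1), where fold changes of low genes are understated. The deposited FPKM values were not used.

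Genes were filtered with edgeR's filterByExpr, scaled by TMM and fitted in all 22 libraries with edgeR 4.0.16 in R 4.3.3 (quasi-likelihood, robust), with Benjamini-Hochberg adjustment over 16974 genes and a threshold of 0.05. CPM is the rounded count scaled to the library's TMM-adjusted total over tested genes. Alternatives used DESeq2 1.42.0, limma 3.58.1, the title prefix or Xist level as a covariate, no filter, fewer groups, 2 prefixes, and each library left out. The procedure was tested on simulated data. Libraries of a genotype differed by more than counting noise; whether any share an animal is not given in the labels. Replicate numbers follow the order of deposition.

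The members and lists were chosen with earlier results of these data known, and no list was tested as a set. Genes named are the called members, the 3 with the smallest p per role class in HOM against WT and HOM against HET, the 3 with the smallest p in HET against WT, Yars, and 2 of the wider list per contrast. Others were named after their values were seen.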

Additional observations from a re-analysis of the deposited data

Results flagged for a closer look

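In 114 groups of 6 or 10 libraries, 12 had a library whose gap to its nearest neighbour was large against the range of the group by Dixon's criterion. Chance gives about 1 in 20 groups. HOM 3, the library with the highest Schwann cell, blood and fibroblast marker sums, accounted for 4 of the 12. It was lowest for Acat2, the thiolase that opens the pathway, with 50.2 CPM against 60.4 CPM in the next HOM library. It was highest for Nr1h3 (5.26 against 4.07 CPM), Abca1 (68.2 against 59.3 CPM) and Mylip (16.7 against 11.0 CPM). The part of peripheral tissue or blood in these values was not tested.

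HOM 8 was highest for Hsd17b7 (46.8 against 40.0 CPM). HET 3 was lowest for the kinase Mvk (18.8 against 21.2 CPM) and highest for Mylip (11.3 against 9.8 CPM). Among WT libraries, WT 2 was highest for the kinase Pmvk (35.2 against 31.2 CPM), WT 4 lowest for Stard4 (51.2 against 58.5 CPM), WT 6 highest for the efflux pump Abcg1 (92.5 against 80.3 CPM), and WT 5 lowest for Cyp46a1 (30.8 against 36.4 CPM) and highest for Soat1 (47.3 against 40.5 CPM).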

How the results depend on the processing

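No paired analysis was possible because the replicate numbers follow the order of deposition and pair no libraries. The median shift of the synthesis enzymes kept its sign in each alternative run: -0.115 to -0.051 in HOM against WT, 0.033 to 0.103 in HET against WT and -0.167 to -0.113 in HOM against HET. Members called in HOM against HET numbered 2, 0 in the fit that includes the title prefix, also without HOM 3, 6 with DESeq2, and 1 each with limma-trend on TPM and in prefixes 40411 and 40412 alone. They ranged from 1 to 4 with single libraries left out, 4 without HOM 8 or HOM 10. Genes called over all genes were 28 with DESeq2 and 8 in the 2 prefixes in HOM against WT (16 in the main test, 12 to 19 with libraries left out). In HOM against HET they were 10 with the title prefix, 76 with DESeq2 and 11 with limma-trend (18 in the main test). Leaving out libraries gave 10 without HET 3, 11 without HOM 1 or HOM 4 and 39 without HOM 10. Signs turned, at values near 0, for Abca1 in HOM against WT (-0.03 in the 2 prefixes, -0.009 with the prefix and without HOM 3), Acss2 (0.016 with limma-trend), Srebf1 in HOM against HET (-0.009 and -0.01 with the prefix, with and without HOM 3), Srebf2 there (0.003 and 0.002 likewise, 0.009 in the 2 prefixes) and Yars in HET against WT (-0.005 without HET 2, with the other left-out libraries up to 0.027). Of the 37 genes 7 had a lower mean in HET than in WT in CPM, and 3 in TPM. The TPM scale was shifted over all genes in this contrast. Of 16974 genes, 4545 were below 0 with limma-trend on TPM, against 8172 in the main test. Relations with Hmgcs1 that passed by Pearson's r numbered 5 without HOM 3 and 9 with it, and the share over all genes was not taken without HOM 3. The causes were not tested. The combined fits with the prefix and without HOM 3, and the removal of prefix means, were chosen after seeing the data. The fit with the prefix as a covariate uses all 22 libraries. Prefix 39992 holds 5 HOM, 0 HET and 1 WT libraries, so it bears on the HOM against HET difference there only through its WT library. Prefix 40411 holds 1 HET library.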
